A study of Mus musculus with 9 samples.

Results

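The TNF superfamily was read from 66 of 45281 array probes: those with a platform gene symbol beginning Tnfsf or Tnfrsf and a digit, and those for Tnf, Lta, Ltb, Ltbr, Fas and Fasl. They stood for 36 of 19057 named genes. A probe passed when its signal lay above the background limit of 14.3 on at least 3 of the 9 arrays. By that rule 44 of the 66 probes passed and 27 of the 36 genes could be tested, among 10872 tested genes in all. The cells were splenic Gr-1+ (Ly6G+) cells, neutrophils and myeloid cells that share the marker, taken by magnetic purification 7 days after bone marrow transplantation. RNA was hybridised to Illumina mouse BeadChips, with 3 arrays in each of 3 groups. Syngeneic hosts without graft-versus-host disease and wild-type (WT) allogeneic hosts carry the strain label C57BL/6 (B6). The KO group carries the strain label B6.129-Ido1tm1Alm/J (IDO KO), a whole-animal deletion of Ido1, the first enzyme of the kynurenine pathway of tryptophan. All animals had received a transplant, and the sources used here do not give age, sex, pooling or donor strain. Whether the 3 arrays of each group are separate animals is also not stated, and each p-value is thus a measure of the spread among arrays, which may be technical.

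Ligands of the family are mostly trimeric membrane proteins that can be shed, and each binds 1 or a few receptors of the partner family. Receptors with a death domain, such as Fas and TNFR1, can start apoptosis or necroptosis, while others recruit TRAF adaptors and turn on NF-kB. In the spleen the family is known for organising B cell follicles (lymphotoxin, TNF), keeping B cells and plasma cells alive (BAFF and its receptors) and costimulating T cells (OX40, CD137, GITR), and neutrophils are a known source of TNF, BAFF and TRAIL.

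WT replicate 2 stood apart from the other arrays, and many but not all of its neutrophil markers went against its cell label. Its mean correlation with WT replicates 1 and 3 was 0.919, while the other groups' arrays correlated within their group at 0.993 to 0.998. Retnlg, a transcript of neutrophils, read 295 there and 27000 to 31680 on the other 8 arrays, and Csf3r, the G-CSF receptor, read 13.2, not above the limit, against 453 to 765. The summed signal of the 8 tested mature neutrophil markers was 30910 on that array and 81600 to 94980 on the others. S100a8, which makes up most of the sum on that array, read 23170 there and 24400 to 31800 on the others. S100a9 read 7219 there and 16220 to 22160 on the others. The sum of 10 tested T cell markers (Cd3d, Cd3e, Cd3g, Cd2, Cd6, Cd247, Lat, Thy1, Trat1 and Cd28) was 7445 to 7667 in the syngeneic group, 2642, 54250 and 2564 on WT replicates 1, 2 and 3, and 9439, 14620 and 22480 on KO replicates 1, 2 and 3. Lat and Trat1 were not above the limit on WT replicates 1 and 3. The sum of 11 monocyte and macrophage markers was 72020 to 74330 in the syngeneic group, 10010, 3686 and 9853 in the WT group and 18360 to 23000 in the KO group. The sum of 7 erythroid markers was 64910 to 66160 in the syngeneic group, 10900, 56940 and 10090 on WT replicates 1, 2 and 3 and 2222 to 9873 in the KO group. All 7 were lower in both allogeneic groups than in the syngeneic group without WT replicate 2, as were Tnfrsf11a, Tnfrsf17 and Tnfrsf21 among the members. On WT replicate 2, with its erythroid sum of 56940, these members read 11.4, 165 and 768, each below every syngeneic array. The part of erythroid cells in those results was not tested. Each comparison is therefore given with all 9 arrays and without WT replicate 2, which leaves 2 WT arrays. In such bulk samples, fewer cells of a type and less RNA per cell cannot be told apart. Of the 2 chips, 1 held the KO group alone and the other both remaining groups, and genotype therefore cannot be told apart from chip. The Ido1 probe read 24.6, 33.8 and 20.0 in the WT group and was not above the limit on any KO or syngeneic array. Xist, the X-inactivation transcript, read 347 to 464 in the WT group and was not above the limit on any KO array, so a difference in host or donor sex cannot be told apart from genotype either.

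Over all 9 arrays, 4 of the 27 tested genes passed limma's moderated test (Benjamini-Hochberg over all 10872 genes, adjusted p under 0.05) in at least 1 comparison: Ltb, Tnfrsf11a, Tnfrsf17 and Tnfrsf26. In WT vs syngeneic, 0 members were higher, against 4.8% of all genes, and 2 were lower (Tnfrsf11a and Tnfrsf17), against 5.64%. At an unadjusted p under 0.05, 3 of 27 members were higher there and 6 lower (11.1% and 22.2%), against 15.2% and 11.9% of all genes. In KO vs WT, 1 member was higher (Ltb), against 1.18% of all genes, and 0 were lower, against 0.828%. At an unadjusted p under 0.05, limma placed 4 members higher (14.8%) and 0 lower, against 8.55% and 10.4% of all genes. In KO vs syngeneic, 2 members were higher (Ltb and Tnfrsf26), against 5.09%, and 2 were lower (Tnfrsf11a and Tnfrsf17), against 6.85%. The unadjusted rule gave 6 higher and 4 lower there (22.2% and 14.8%), against 12.6% and 13.3% of all genes. Tnfrsf26 and Tnfrsf9 passed the filter on dim probes only through the KO group, so a higher KO level was part of their selection and the counts of members higher in KO cells are no support for a shift of the family. WT vs syngeneic and KO vs syngeneic share the syngeneic arrays, and KO vs WT shares its arrays with both.

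Without WT replicate 2, limma called 15 of the 27 members in KO vs WT. The 10 that were higher in KO cells, against 10.2% of all genes, were Fasl, Ltb, Tnfsf10, Tnfrsf4, Tnfrsf9, Tnfrsf13c, Tnfrsf18, Tnfrsf22, Tnfrsf25 and Tnfrsf26. The 5 that were lower, against 9.78%, were Tnf, Tnfsf13b, Tnfrsf1a, Tnfrsf12a and Tnfrsf21. In WT vs syngeneic 5 members were higher (Fas, Ltbr, Tnfrsf1a, Tnfrsf12a and Tnfrsf22), against 14.6% of all genes, and 5 were lower (Ltb, Tnfrsf11a, Tnfrsf13c, Tnfrsf17 and Tnfrsf21), against 14.9%. In KO vs syngeneic 11 were higher, against 19.3%, and 5 were lower, against 20%. The KO vs syngeneic differences themselves are the same in both fits, since neither group holds that array, and its removal acts there through the shared estimate of the spread. The median log2 difference of the 27 members in KO vs WT was 0.14 on 9 arrays and 0.11 without the array, beside -0.02 and -0.01 for all genes. Fold sizes refer to intensities with an offset of 50, which understates the change of dim genes.

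**Figure D1:**
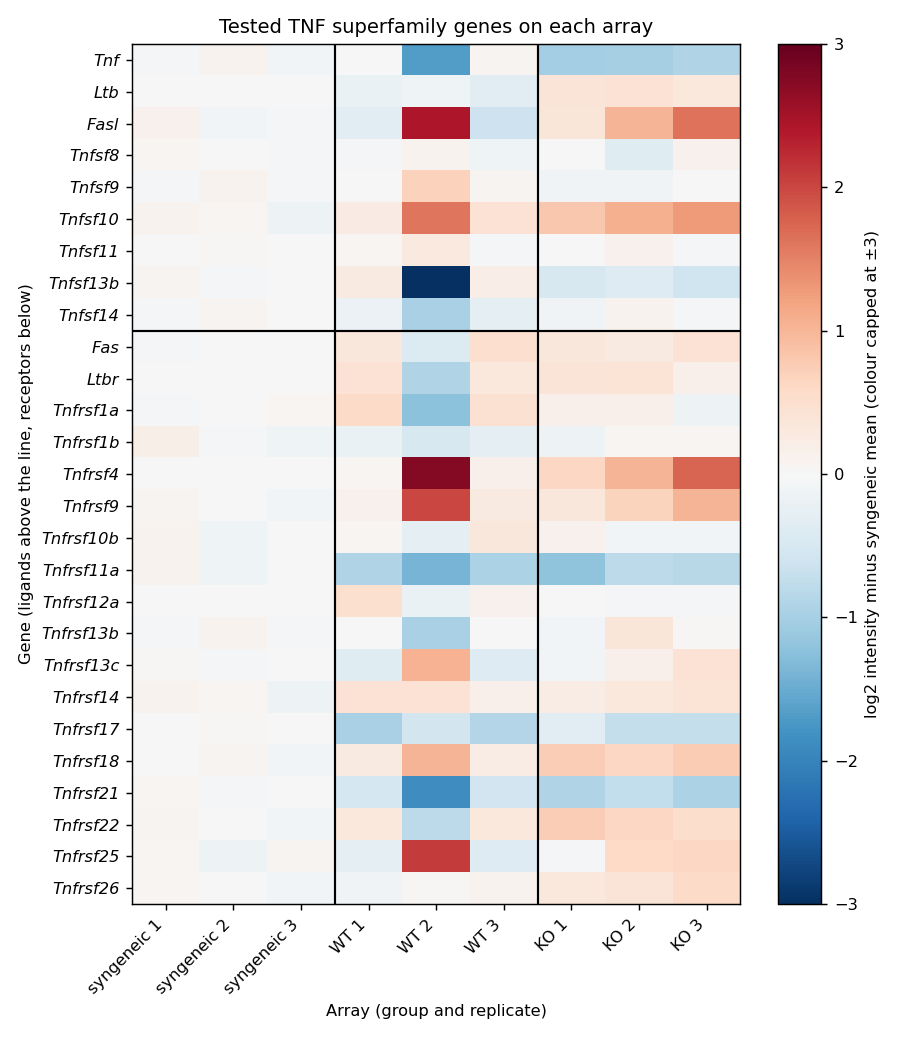
Each row is 1 of the 27 tested superfamily genes and each column 1 of the 9 arrays; colour gives the log2 intensity minus the mean of the syngeneic arrays, capped at 3 in either direction. WT replicate 2 differs from WT replicates 1 and 3 in many rows, with Fasl and Tnfrsf4 far higher and Tnfsf13b far lower, while Ltb is higher on all 3 KO arrays than on the other 6.

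Among the ligands, Ltb was the 1 member that differed between KO and WT cells with and without WT replicate 2. It encodes lymphotoxin beta, the membrane subunit that holds lymphotoxin alpha at the cell surface and signals through the lymphotoxin beta receptor. Its signal was 1498, 1499 and 1472 on the syngeneic arrays, 1291, 1368 and 1157 on the WT arrays and 1955, 2046 and 1880 on the KO arrays. The 3 groups did not overlap, with KO highest and WT lowest, and WT replicate 2 lay among its group. KO exceeded WT 1.52-fold (log2 difference 0.60 ± 0.08 SE, n = 3 per group, limma adjusted p = 0.0169), and without WT replicate 2 the difference was 0.65 ± 0.08 with an adjusted p of 0.000273. KO exceeded the syngeneic group 1.3-fold (0.38 ± 0.08, adjusted p = 0.0215). The difference between WT and syngeneic was -0.22 (adjusted p = 0.135), and -0.27 without WT replicate 2 (adjusted p = 0.0264). The call in KO vs WT was lost when most other single arrays were left out: the limma adjusted p was 0.0505, 0.0522 and 0.056 when syngeneic replicates 1, 2 and 3 were left out in turn, 0.0617 and 0.0535 for WT replicates 1 and 3, 0.0923 and 0.0644 for KO replicates 2 and 3, and 0.173 when only the 6 KO and WT arrays were fitted. The KO vs syngeneic call was lost without any 1 syngeneic array (adjusted p = 0.0805, 0.0786 and 0.0902 for replicates 1, 2 and 3) and without any 1 KO array (0.0543, 0.0837 and 0.0517). It was also lost without background correction (0.0559) and on the deposited log2 values (0.0663). The log2 difference of KO over WT stayed between 0.54 and 0.65 when any 1 array was left out. The T cell marker sum had the same group order as Ltb on the 8 arrays other than WT replicate 2 (KO 9439 to 22480, syngeneic 7445 to 7667, WT 2642 and 2564), and all 10 tested T cell markers were higher in KO than in WT and in syngeneic cells on those arrays. Lat and Trat1 among these markers passed the filter on dim probes only through the KO group. On WT replicate 2 the sum was 54250 while Ltb read 1368, within its group. The part of T cell RNA in the Ltb result was not tested.

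The partners of Ltb gave little signal or no call on 9 arrays. Lta, the soluble lymphotoxin subunit, was above the limit on WT replicate 2 alone, where its 2 probes read 29.9 and 27.4. Ltbr, the receptor, read 277, 279 and 272 in the syngeneic group, 396, 117 and 358 in the WT group and 379, 385 and 316 in the KO group. Its level on WT replicate 2 was the lowest of all 9, and the KO arrays lay above the syngeneic arrays. Ltbr passed the test without WT replicate 2 in WT vs syngeneic (0.37 ± 0.09, adjusted p = 0.0103) and in KO vs syngeneic (0.31 ± 0.08, adjusted p = 0.0104). In KO vs WT its difference was then -0.06 ± 0.09. Tnfsf14, known as LIGHT and a further ligand of this receptor and of Tnfrsf14, read 878, 961 and 896 in the syngeneic, 805, 434 and 744 in the WT and 838, 988 and 866 in the KO group, and passed in none of the comparisons on 9 arrays or without WT replicate 2. With array weights its WT vs syngeneic difference of -0.22 passed (adjusted p = 0.0413). Its 2 other passing probes were not tested alone. In 1 of them the KO arrays (465 to 563) lay above all syngeneic and WT arrays (231 to 413), with a KO vs syngeneic difference of 0.42. The other gave 0.06 there and the probe used -0.02. Tnfrsf14, the HVEM receptor, read 18.6, 15.9 and 4.15 in the syngeneic, 39.6, 39.9 and 21.1 in the WT and 25.2, 31.7 and 38.1 in the KO group. It was higher in KO than in syngeneic cells without WT replicate 2 (0.31 ± 0.10, adjusted p = 0.0279).

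**Figure D2:**
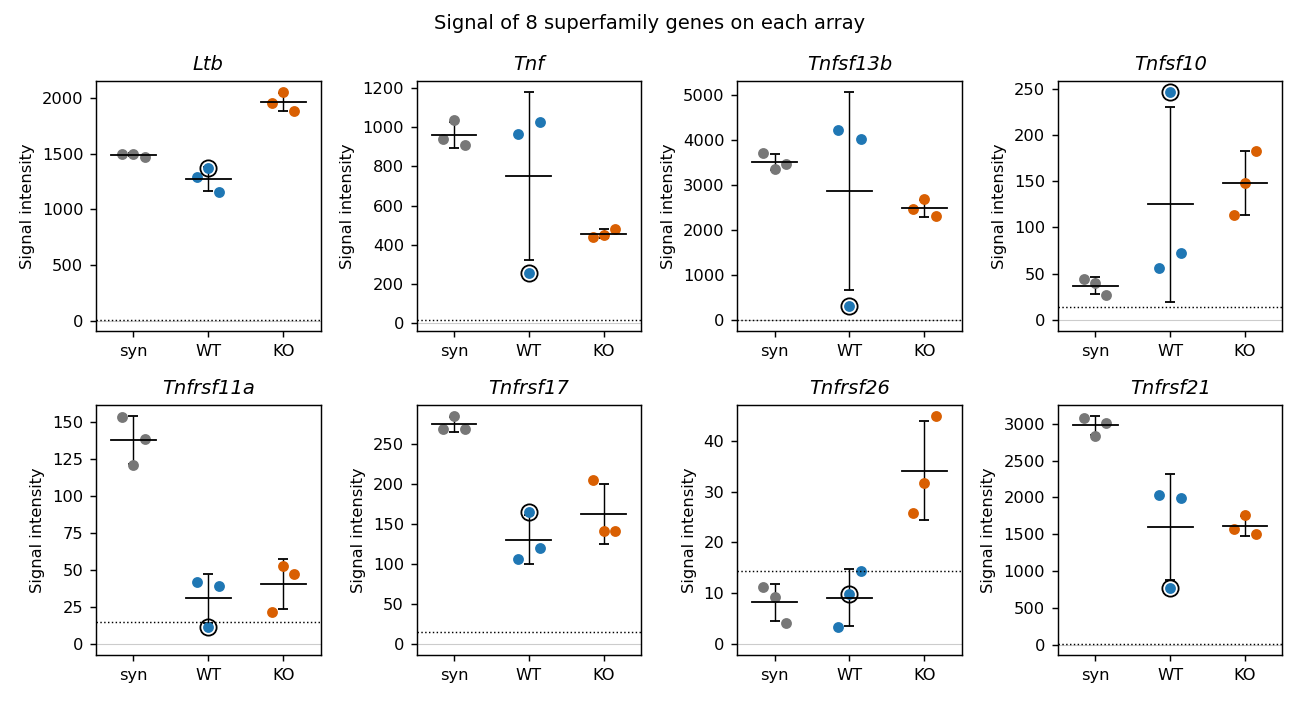
Each panel shows 1 gene (Ltb, Tnf, Tnfsf13b, Tnfsf10, Tnfrsf11a, Tnfrsf17, Tnfrsf26 or Tnfrsf21); points are the signal intensity on each array, bars the group mean and error bars the SD of 3 arrays, with WT replicate 2 ringed and the background limit of 14.3 dotted. The KO points of Ltb (1880 to 2046) lie above all others, and the ringed point of Tnfsf13b (328) lies far below the other WT arrays.

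Ltb and Tnf lie next to each other on chromosome 17, with Lta next to Tnf, and in KO cells they differed from WT in opposite directions. Their promoters, from 250 bases before to 50 bases after the start of transcription, are shown with that of Tnfsf13b because they are the neighbouring ligands of opposite direction and the other ligand lower in KO than in WT cells without WT replicate 2; the ligands Tnfsf10 and Fasl, higher there, are not shown. Sequences are from RefSeq, build GRCm38.p6, written 5' to 3' along the gene: Ltb at chr17:35194257-35194556 (plus strand), Tnf at chr17:35201958-35202257 (minus strand) and the second of 2 listed Tnfsf13b promoters at chr8:10006383-10006682 (plus strand). Capitals mark matches to 3 motifs searched on both strands: the NF-kB consensus, the GAS motif TTCNNNGAA bound by STAT factors, and the ISRE core (GAAA, any 2 bases, GAAA) bound by IRF and STAT complexes.
Ltb: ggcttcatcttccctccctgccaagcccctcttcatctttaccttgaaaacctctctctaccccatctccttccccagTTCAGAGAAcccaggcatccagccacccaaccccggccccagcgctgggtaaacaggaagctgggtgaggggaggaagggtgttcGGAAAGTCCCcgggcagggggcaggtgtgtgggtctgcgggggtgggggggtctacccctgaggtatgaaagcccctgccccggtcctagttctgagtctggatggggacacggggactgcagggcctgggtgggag
Tnf: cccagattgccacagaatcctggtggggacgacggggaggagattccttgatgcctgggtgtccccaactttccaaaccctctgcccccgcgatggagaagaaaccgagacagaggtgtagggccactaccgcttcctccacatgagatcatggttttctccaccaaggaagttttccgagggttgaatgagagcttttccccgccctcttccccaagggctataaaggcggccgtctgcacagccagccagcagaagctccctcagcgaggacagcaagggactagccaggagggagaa
Tnfsf13b: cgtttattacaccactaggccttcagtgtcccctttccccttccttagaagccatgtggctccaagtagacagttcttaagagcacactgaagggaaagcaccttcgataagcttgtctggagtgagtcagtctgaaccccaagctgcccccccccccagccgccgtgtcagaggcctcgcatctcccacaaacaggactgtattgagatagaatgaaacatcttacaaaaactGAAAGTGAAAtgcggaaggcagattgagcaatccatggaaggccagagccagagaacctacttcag
The Ltb promoter holds 1 GAS match and, nearer the start, 1 NF-kB match, the Tnf window holds no match to the 3 patterns, and the Tnfsf13b window holds 1 ISRE match. The first Tnfsf13b promoter and the Tnfsf10 promoter hold 0 matches. Of 32851 promoters of the same length, 8.46% hold the NF-kB pattern, 8.3% GAS and 3.44% ISRE. Promoters were listed for 23 of the 27 tested members. The NF-kB pattern was in those of 3 (Ltb, Tnfrsf9 and Tnfrsf25), GAS in those of 7 (Fas, Ltb, Tnfrsf1a, Tnfrsf1b, Tnfrsf9, Tnfrsf18 and Tnfrsf25) and ISRE in those of 4 (Tnfrsf1b, Tnfrsf14, Tnfrsf17 and Tnfsf13b). A match describes these letters and shows no binding.

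Tnf, the inflammatory cytokine that gives the family its name, read lowest in KO cells once WT replicate 2 was set aside. Its signal was 939, 1039 and 912 on the syngeneic arrays, 964, 255 and 1030 on the WT arrays and 440, 448 and 481 on the KO arrays. WT replicate 2 fell below the KO arrays, while every other syngeneic and WT array lay above them. On 9 arrays the KO vs WT difference was -0.45 ± 0.41 (limma adjusted p = 0.588). Tnf fell 2.03-fold in KO vs WT without WT replicate 2 (-1.02 ± 0.09, adjusted p = 1.91e-05) and 1.97-fold in KO vs syngeneic (-0.98 ± 0.08, adjusted p = 1.14e-06). The second Tnf probe gave -0.62 for KO vs WT on those 8 arrays. Monocyte and macrophage markers went different ways over these 8 arrays. Their sum, made up mostly of C1qb, C1qc, Vcam1 and Spic, was lowest on WT replicates 1 and 3, where Tnf read 964 and 1030. Ccr2, a receptor of inflammatory monocytes, was highest there (1352 and 1397), read 1058 to 1113 in the syngeneic group and 368 to 559 in the KO group, and was lower in KO than in WT cells (-1.40 ± 0.13, adjusted p = 4.23e-05), as Tnf was. It was the 1 marker of 11 called lower in KO vs WT on these 8 arrays, while 6 were called higher (C1qa, C1qb, C1qc, Vcam1, Spic and Mertk). In KO vs syngeneic all 11 were called lower. The part of these markers, or of the chip, in the Tnf result was not tested.

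Of the TNF receptors, Tnfrsf1a, the death-domain receptor TNFR1, read 484, 512 and 526 in the syngeneic, 793, 179 and 719 in the WT and 569, 572 and 448 in the KO group. Without WT replicate 2 it was higher in WT than in syngeneic cells (0.52 ± 0.10, adjusted p = 0.00303) and lower in KO than in WT cells (-0.47 ± 0.10, adjusted p = 0.0094), and its 2 other probes gave -0.45 and -0.35 for KO vs WT. On 9 arrays both differences had the opposite sign and did not pass with limma. Tnfrsf1b, TNFR2, averaged 299 ± 39.9 (SD, n = 3), 227 ± 29.8 and 295 ± 30.5 in the syngeneic, WT and KO groups. It passed in none of the comparisons, and in KO vs WT its other 2 probes differed in sign from it.

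Tnfsf13b encodes BAFF, the survival factor of B cells. It read 3710, 3358 and 3459 in the syngeneic group, 4221, 328 and 4020 in the WT group and 2476, 2679 and 2302 in the KO group. WT replicate 2 held 0.0795 times the mean of WT replicates 1 and 3, and the KO arrays lay below all syngeneic arrays. The KO vs WT difference was 0.42 ± 0.80 on 9 arrays (limma adjusted p = 0.806), and without WT replicate 2 it was -0.72 ± 0.09 (adjusted p = 0.000256), so that the sign turned with that array. In KO vs syngeneic Tnfsf13b was lower by the fit of those 8 arrays (-0.49 ± 0.08, adjusted p = 0.000466). Of its 2 further probes, 1 gave -0.79 and the other, much dimmer, gave -0.60 in KO vs WT without WT replicate 2, and in KO vs syngeneic the dimmer probe gave 0.08. Outside WT replicate 2, Ccr2 had the same group order as Tnfsf13b, while the monocyte and macrophage sum was lowest in the WT group. The mature neutrophil sum was, like Tnfsf13b, lowest on WT replicate 2, but it was highest in the KO group. The part of these markers, or of the chip, in the Tnfsf13b result was not tested.

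The 3 receptors of the BAFF system did not follow 1 pattern. Tnfrsf17, BCMA, the receptor that keeps plasma cells alive, read 269, 284 and 269 in the syngeneic group, 106, 165 and 120 in the WT group and 205, 140 and 140 in the KO group. All 6 allogeneic arrays lay below the syngeneic arrays, WT replicate 2 included. It fell 1.74-fold in WT vs syngeneic (-0.80 ± 0.14, limma adjusted p = 0.0104) and 1.5-fold in KO vs syngeneic (-0.59 ± 0.14, adjusted p = 0.0332). The former call was lost without syngeneic replicate 2 (adjusted p = 0.052). The latter was lost without syngeneic replicate 1, 2 or 3 (0.104, 0.117 and 0.105), without KO replicate 2 or 3 (0.119 and 0.123) and on the deposited log2 values (0.0602). The 4 tested plasma cell markers summed to 15340 to 16100 in the syngeneic, 13190 to 16930 in the WT and 17950 to 20980 in the KO group, a sum that Xbp1, a factor of secretory cells, mostly makes up (8563 to 17850). Mzb1, a chaperone of antibody-secreting cells, read 3870 to 4331 in the syngeneic group, 1850, 8138 and 1644 on the WT arrays and 2900 to 3157 in the KO group, and was lower than in syngeneic cells in WT (-1.22, adjusted p = 7.41e-07) and in KO cells (-0.45, adjusted p = 0.000818) without WT replicate 2. Derl3 was then lower in WT vs syngeneic (-0.40, adjusted p = 0.0123) but not in KO vs syngeneic (0.09, adjusted p = 0.321). Xbp1 went the other way in KO vs syngeneic. It was higher there (0.50) with all arrays (adjusted p = 0.0494) and without WT replicate 2 (adjusted p = 0.0007). In WT vs syngeneic the Xbp1 difference without that array was 0.0065 (adjusted p = 0.948). Sdc1 did not pass against syngeneic cells, with -0.18 in WT and 0.05 in KO cells without that array. The part of these markers in the Tnfrsf17 result was not tested. Tnfrsf13c, the BAFF receptor of mature B cells, read 29.2, 24.5 and 28.1 in the syngeneic, 6.51, 127 and 5.73 in the WT and 21.9, 37.7 and 59.1 in the KO group. WT replicates 1 and 3 were not above the limit, and without WT replicate 2 the gene was at least 1.16-fold lower in WT than in syngeneic cells (adjusted p = 0.0413) and at least 1.3-fold higher in KO than in WT cells (adjusted p = 0.0109). The sum of 3 tested B cell markers was likewise lowest on WT replicates 1 and 3 and highest on WT replicate 2, at 979 to 1109 in the syngeneic group, 381, 1686 and 378 on the WT arrays and 597 to 750 in the KO group, and their part in the result was not tested. Tnfrsf13b, the TACI receptor, averaged 1239 ± 84.2, 1019 ± 364 and 1348 ± 233 (SD, n = 3) in the syngeneic, WT and KO groups, and passed in none of the comparisons.

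Among the ligands that start apoptosis, Tnfsf10, known as TRAIL, read 43.8, 40.0 and 26.3 in the syngeneic group, 56.4, 246 and 72.3 in the WT group and 113, 148 and 183 in the KO group. The KO arrays lay above all syngeneic arrays and above WT replicates 1 and 3, and WT replicate 2 was the highest of all. The KO vs syngeneic difference was 1.05 ± 0.32 on 9 arrays (limma adjusted p = 0.0743), with an adjusted p of 2.47e-05 without WT replicate 2 and of 0.0435 on 9 arrays without background correction. In KO vs WT it was 0.28 ± 0.32 on 9 arrays (adjusted p = 0.67) and 0.70 ± 0.13 without WT replicate 2 (adjusted p = 0.00337). Tnfsf10 had the order of the T cell marker sum within the KO group, and both were highest on WT replicate 2. On WT replicates 1 and 3 Tnfsf10 lay above the syngeneic arrays and the T cell sum below them. The part of T cell RNA in the Tnfsf10 result was not tested. Fasl, the Fas ligand of cytotoxic lymphocytes, read 69.5, 51.7 and 55.1 in the syngeneic, 32.5, 603 and 15 in the WT and 95.1, 188 and 321 in the KO group. Within the KO group its order was that of the T cell marker sum, and WT replicate 2 was highest in both. Fasl was, without WT replicate 2, higher in KO than in WT (1.48 ± 0.26, adjusted p = 0.00237) and than in syngeneic cells (1.01 ± 0.23, adjusted p = 0.00488), and the part of T cell RNA in this was not tested.

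Fas, the death receptor bound by Fasl, read 707, 734 and 731 in the syngeneic, 940, 533 and 1062 in the WT and 932, 883 and 994 in the KO group. Without WT replicate 2 it was higher than in syngeneic cells in WT (0.43 ± 0.09, adjusted p = 0.00277) and in KO cells (0.34 ± 0.08, adjusted p = 0.00412), and the KO vs WT difference was -0.09 ± 0.09. Tnfrsf10b, the death-domain receptor of TRAIL, averaged 49.3 ± 9.88, 54.3 ± 24.9 and 48.0 ± 10.7 (SD, n = 3) in the syngeneic, WT and KO groups and passed in none of the comparisons. Tnfrsf22, a mouse decoy receptor for TRAIL, read 371, 351 and 322 in the syngeneic, 448, 175 and 450 in the WT and 621, 576 and 527 in the KO group. Its KO arrays lay above the other 6. It passed in all 3 comparisons without WT replicate 2, with 0.31 ± 0.09 in KO vs WT (adjusted p = 0.0306) and 0.63 ± 0.08 in KO vs syngeneic (adjusted p = 7.25e-05), while on 9 arrays the KO vs WT difference was 0.68 (adjusted p = 0.227). Without WT replicate 2 its 2 other passing probes, both dimmer, gave 0.08 and 0.18 in KO vs WT and 0.36 and 0.46 in KO vs syngeneic. In the first of them the KO and WT arrays overlapped.

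Tnfrsf26, a receptor of this family in mouse, was above the limit on all KO arrays and on 1 other. It read 11.1, 9.26 and 4.09 on the syngeneic arrays, 3.20, 9.74 and 14.4 on the WT arrays and 25.8, 31.8 and 44.9 on the KO arrays, so that the KO group lay above both others. It passed the filter only through the KO arrays, and its p in a comparison with KO is thus not independent of that selection. It was at least 1.24-fold higher in KO than in syngeneic cells on 9 arrays (limma adjusted p = 0.0281, and 0.0257 in the fit with no filter on dim probes). In KO vs WT the difference was 0.41 ± 0.10 (adjusted p = 0.0782), and 0.42 ± 0.10 without WT replicate 2 (adjusted p = 0.015). The KO vs syngeneic call was lost without syngeneic replicate 1, 2 or 3 (0.0757, 0.0883 and 0.118), without KO replicate 2 or 3 (0.0781 and 0.0955) and on the deposited log2 values (0.0663). It was also lost with the replicate number as a block (0.0634). With a filter on the detection p in place of the limit, Tnfrsf26 was not among the members called.

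Tnfrsf21, known as death receptor 6, read 3080, 2836 and 3016 in the syngeneic group, 2034, 768 and 1989 in the WT group and 1572, 1761 and 1498 in the KO group. All allogeneic arrays lay below the syngeneic arrays, and the differences on 9 arrays were -0.99 (limma adjusted p = 0.0884) for WT vs syngeneic and -0.86 (adjusted p = 0.127) for KO vs syngeneic. Both passed without WT replicate 2, at -0.55 ± 0.09 (adjusted p = 0.000629) and -0.86 ± 0.08 (adjusted p = 4.7e-06), and KO vs WT was -0.31 ± 0.09 (adjusted p = 0.0282). Its second, dimmer probe gave 0.07 for WT vs syngeneic on those arrays.

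Tnfrsf11a encodes RANK, the receptor that drives osteoclast formation and is also found on macrophages and dendritic cells. It read 153, 121 and 139 on the syngeneic arrays, 41.6, 11.4 and 38.6 on the WT arrays and 21.1, 52.5 and 47.0 on the KO arrays. Each allogeneic array lay below all syngeneic arrays, and WT replicate 2 was not above the limit. It fell 2.12-fold in WT vs syngeneic (-1.08 ± 0.16, limma adjusted p = 0.00453) and 1.93-fold in KO vs syngeneic (-0.94 ± 0.16, adjusted p = 0.0076). Both calls held when any 1 array was left out, and the KO vs syngeneic call was lost on the deposited log2 values (adjusted p = 0.0728). In KO vs WT the difference was 0.14 (adjusted p = 0.682). Markers of macrophages were lower in the same arrays, with 9 of the 11 tested called lower in WT and 8 in KO cells against the syngeneic group on 9 arrays, and their part in the Tnfrsf11a result was not tested. Its ligand Tnfsf11, RANKL, lay at 10.6 to 31.6 over the 9 arrays, near the limit, and passed in none of the comparisons. Tnfrsf12a, the TWEAK receptor Fn14, read 135, 131 and 134 in the syngeneic, 213, 109 and 153 in the WT and 136, 124 and 127 in the KO group. It was, once that array was left out, higher in WT than in syngeneic cells (0.31 ± 0.10, adjusted p = 0.037) and lower in KO than in WT cells (-0.34 ± 0.10, adjusted p = 0.0339).

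**Figure D3:**
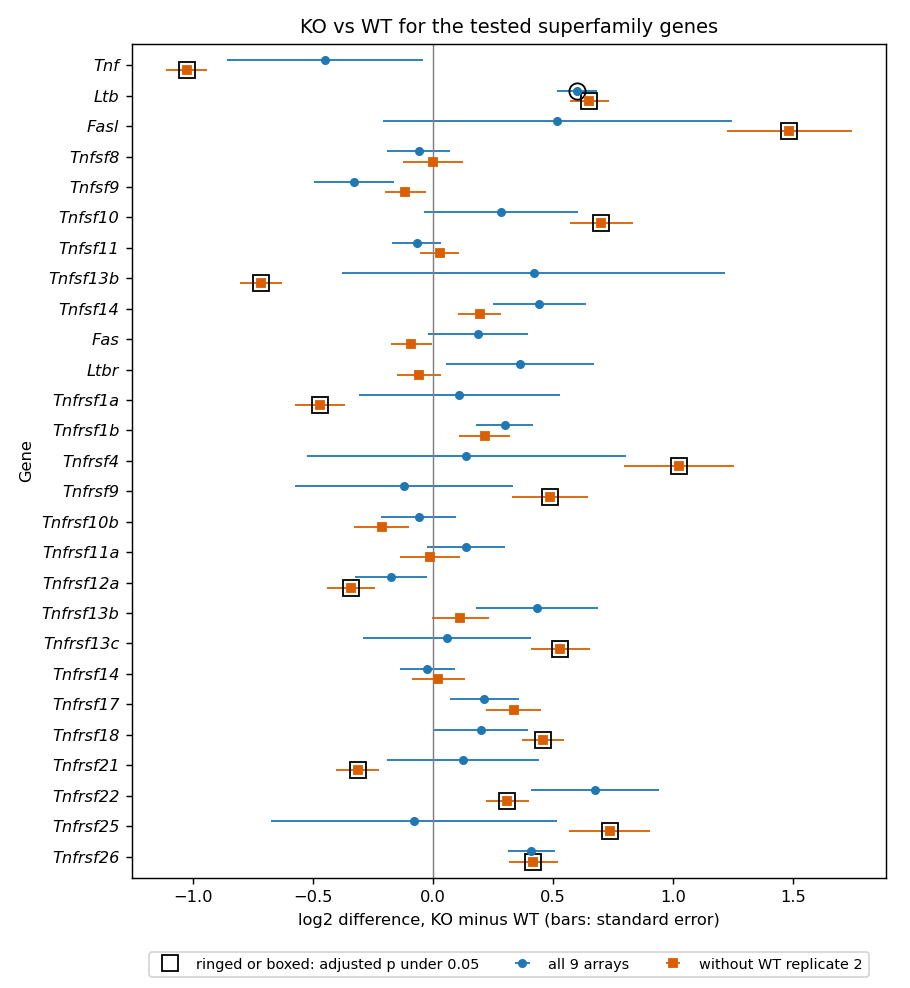
For each of the 27 tested genes the log2 difference of KO minus WT is plotted with its standard error, on all 9 arrays (circles) and without WT replicate 2 (squares); a ring or box marks an adjusted p under 0.05. Ltb is marked in both, and Tnfsf13b moves from 0.42 to -0.72 when that array is left out.

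Of the receptors that costimulate T cells, each of 4 had its highest signal on WT replicate 2. Tnfrsf4, OX40, read 101, 99.4 and 99.8 in the syngeneic, 106, 1061 and 118 in the WT and 190, 271 and 489 in the KO group. Tnfrsf9, CD137, read 7.63, 4.65 and -0.11 in the syngeneic group, not above the limit, and 10.02, 218 and 18.2 in the WT and 22.5, 45.8 and 77.6 in the KO group. Tnfrsf25, known as DR3, read 20.9, 8.85 and 21.9 in the syngeneic, 2.01, 293 and -3.02 in the WT and 15.3, 59.5 and 62.5 in the KO group. Within the KO group these 3 genes had the order of the T cell sum (9439, 14620 and 22480), and none passed on 9 arrays with limma. A second passing probe of Tnfrsf9 did not keep that order, at 27.87, 20.97 and 60.24 on the KO arrays. It read 22.1 on WT replicate 1, within the KO range, and gave 0.35 in KO vs WT without WT replicate 2. Tnfrsf18, GITR, read 832, 867 and 766 in the syngeneic, 1002, 1735 and 966 in the WT and 1413, 1288 and 1435 in the KO group, and did not keep the order of the T cell sum within the KO group. Without WT replicate 2, KO exceeded WT for Tnfrsf4 (1.03 ± 0.23, adjusted p = 0.00936), Tnfrsf9 (0.49 ± 0.16, adjusted p = 0.0484) and Tnfrsf18 (0.46 ± 0.09, adjusted p = 0.00353). Tnfrsf25 was at least 1.36-fold higher in KO than in WT cells on those arrays (adjusted p = 0.0105). Against syngeneic cells, KO was then higher for Tnfrsf4 (1.12 ± 0.20, adjusted p = 0.00103) and for Tnfrsf18 (0.70 ± 0.08, adjusted p = 2.12e-05). Tnfrsf9 was at least 1.4-fold higher there, but it passed the filter only through the KO arrays, so that neither of its comparisons with KO is independent of the selection. All 10 tested T cell markers were likewise higher in KO than in WT cells without WT replicate 2, by a median of 2.05 on the log2 scale. Lat and Trat1 among them passed the filter only through the KO arrays, so their KO comparisons are not independent of that selection either. The part of the T cell markers in these results was not tested.

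**Figure D4:**
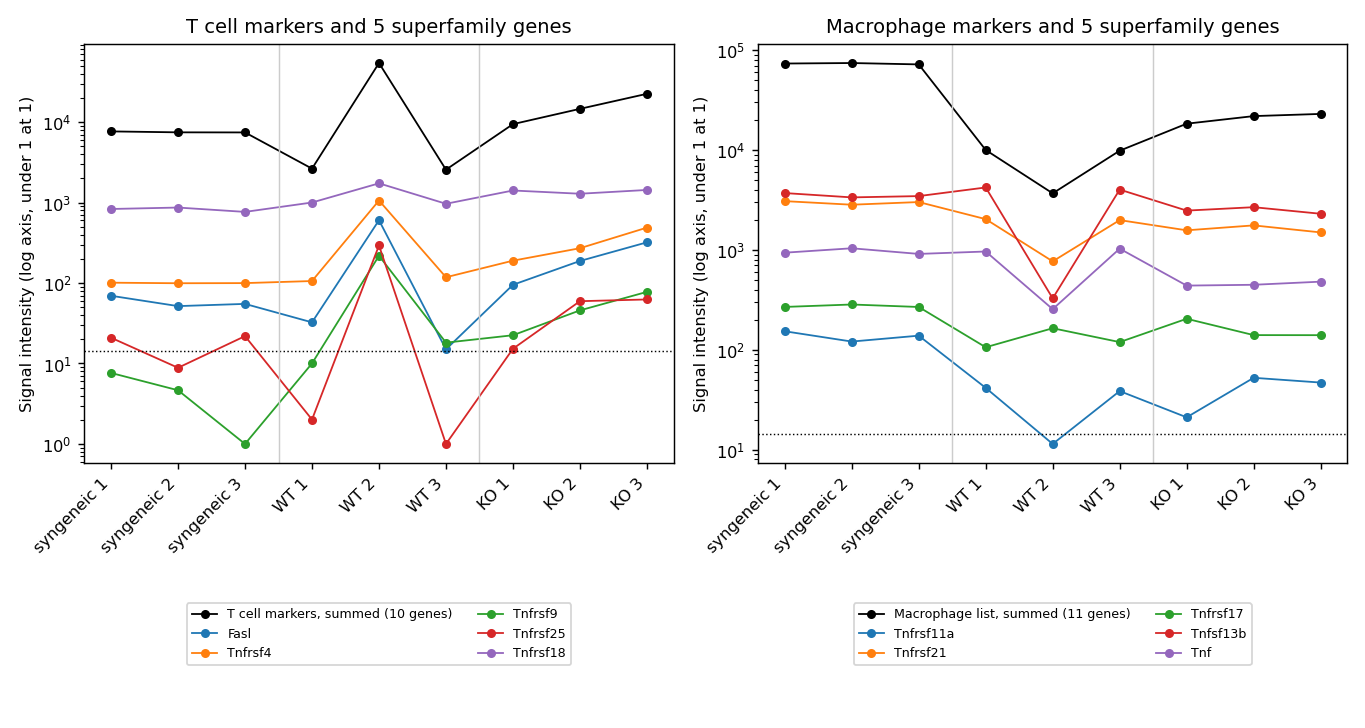
Signal intensity on a log axis for each of the 9 arrays (values under 1 drawn at 1, the limit of 14.3 dotted, lines only join the points of a gene), with summed T cell markers beside Fasl, Tnfrsf4, Tnfrsf9, Tnfrsf25 and Tnfrsf18, and summed monocyte and macrophage markers beside Tnfrsf11a, Tnfrsf21, Tnfrsf17, Tnfsf13b and Tnf. The T cell sum and the 5 genes beside it peak on WT replicate 2 (54250 for the sum), while the macrophage sum is highest on the syngeneic arrays (72020 to 74330).

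The ligands of these receptors were dim. Tnfsf9, the CD137 ligand, averaged 21.7 ± 5.603, 41.7 ± 29.4 and 17.7 ± 3.77 (SD, n = 3) in the syngeneic, WT and KO groups. Tnfsf8, the CD30 ligand, was above the limit on 3 arrays, 1 in each group. Neither passed in any comparison. The genes Tnfsf4 (OX40 ligand), Tnfsf12 (TWEAK), Tnfsf15 (the DR3 ligand TL1A), Tnfsf18 (GITR ligand), Tnfrsf8 (CD30), Tnfrsf11b (osteoprotegerin), Tnfrsf19 and Tnfrsf23 were above the limit on 0 of 9 arrays and were not tested, which with Lta makes 9 genes. A separate symbol, Tnfsfm13, the fusion of TWEAK and APRIL, has no digit after Tnfsf and was not counted as a member. Its brighter probe read 5492 to 5814 in the syngeneic, 6565, 2000 and 6423 in the WT and 4366 to 5364 in the KO group.

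Of superfamily members under other symbols, 5 could be tested, and Cd40, the receptor of T cell help on antigen-presenting cells, was higher in WT (0.88 ± 0.22, limma adjusted p = 0.0384) and in KO cells (0.96 ± 0.22, adjusted p = 0.0246) than in syngeneic cells. Its signal was 366, 383 and 326 in the syngeneic, 874, 480 and 860 in the WT and 653, 726 and 911 in the KO group, with no overlap of either allogeneic group with the syngeneic group. Cd27, a T cell receptor of the family, read 779, 920 and 935 in the syngeneic, 225, 6317 and 233 in the WT and 822, 1693 and 2508 in the KO group, the same order as the T cell sum within the KO group, and did not pass on 9 arrays.

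Downstream of the receptors, 38 of 45 listed adaptors, kinases and NF-kB genes were tested. With limma, 2 were higher and 0 lower in WT vs syngeneic, 0 higher and 1 lower in KO vs WT, and 3 higher and 0 lower in KO vs syngeneic. The shares of all genes higher and lower were 4.8% and 5.64%, 1.18% and 0.828%, and 5.09% and 6.85%. At an unadjusted p under 0.05, 5 were higher and 1 lower in WT vs syngeneic, against 15.2% and 11.9% of all genes. The same rule gave 7 and 4 in KO vs WT, against 8.55% and 10.4%, and 6 and 2 in KO vs syngeneic, against 12.6% and 13.3%. Without WT replicate 2 the counts at an adjusted p under 0.05 were 5 higher and 1 lower, 4 and 2, and 7 and 3. Of all genes, 14.6% and 14.9%, 10.2% and 9.78%, and 19.3% and 20% were then higher and lower. Ripk3, the kinase that starts necroptosis, read 190, 183 and 191 in the syngeneic, 340, 251 and 298 in the WT and 429, 404 and 564 in the KO group. The groups did not overlap, and Ripk3 rose in WT vs syngeneic (0.50 ± 0.13, limma adjusted p = 0.0486) and in KO vs syngeneic (1.05 ± 0.13, adjusted p = 0.00173). Its KO vs WT difference was 0.55 ± 0.13 (adjusted p = 0.0786), and 0.46 without WT replicate 2 (adjusted p = 0.0189). Mlkl, the membrane-lysing substrate of RIPK3, read 1796, 1803 and 1900 in the syngeneic, 3947, 2273 and 3887 in the WT and 3225, 3632 and 3524 in the KO group. It rose in both allogeneic groups against the syngeneic group (0.81 ± 0.19, adjusted p = 0.0345, and 0.89 ± 0.19, adjusted p = 0.0213). Nfkbia, the NF-kB inhibitor that NF-kB itself induces, read 2243, 2447 and 2362 in the syngeneic, 2889, 1689 and 2961 in the WT and 3637, 3987 and 4388 in the KO group. It rose in KO vs syngeneic (0.75 ± 0.20, adjusted p = 0.0465), and in KO vs WT it was 0.70 ± 0.20 on 9 arrays (adjusted p = 0.119) and 0.44 without WT replicate 2 (adjusted p = 0.00655). Fadd, the adaptor that links death domains to caspase-8, read 1269, 1292 and 1248 in the syngeneic, 1569, 1418 and 1679 in the WT and 1071, 1134 and 1106 in the KO group. The 3 groups did not overlap, and Fadd fell in KO vs WT (-0.47 ± 0.08, adjusted p = 0.032). The number of changed signalling genes ranged from 1 to 10 in KO vs syngeneic, and from 0 to 6 in both other comparisons, when any 1 array was left out. The highest numbers came without WT replicate 2. In WT vs syngeneic it was 1 without KO replicate 3 and 0 without any 1 of the remaining arrays, where the Ripk3 and Mlkl calls were thus lost. In KO vs WT it was 0 without any 1 array other than WT replicate 2, so that the Fadd call was lost there.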

How the data were processed

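The authors deposited a table of signal intensities with a detection p-value per probe for 9 arrays, and a matrix of log2 values. The processing notes name GenomeStudio, without a version. Although presented as not normalized, the deposited intensities had been background-subtracted and quantile-normalized, as their values show, and log2 of them lies within 1.1e-06 of the authors' log2 values.

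Intensities were corrected with normexp (offset 50) and quantile-normalized in limma 3.58.1 (R 4.3.3). The background limit, 14.3, is the 95th percentile of 1619 probes of sensory receptors and keratin-associated proteins. The brightest passing probe stood for a gene (11 members had more than 1). Groups were compared with lmFit and eBayes over all 9 arrays and adjusted over 10872 genes by Benjamini-Hochberg. The script was tested on simulated data. A gene not above the limit in a group has a bound ("at least N-fold") against the higher of limit and signal. Alternatives changed correction, filter, probe rule, arrays and weights. Members called in any comparison are given on every array. Their partners are given by array, by group mean, as a range or by where they were above the limit. Members and lists were chosen with earlier results of these data known. Symbols came from the platform annotation, and all 36 matched RefSeq. Replicate numbers did not pair arrays (correlations of WT and KO deviations 0.111, -0.108 and -0.167). The number of arrays limits the precision.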

Additional observations from a re-analysis of the deposited data

How the results depend on the processing

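Of the members called, Tnfrsf11a in WT vs syngeneic kept its call under every alternative run. Leaving out 1 array at a time, members higher numbered 0 to 5 in WT vs syngeneic, 0 to 10 in KO vs WT and 0 to 11 in KO vs syngeneic, members lower 1 to 5, 0 to 5 and 1 to 5, and signalling genes changed 0 to 6, 0 to 6 and 1 to 10. The upper ends came without WT replicate 2. Over the same fits the share of all genes higher was 1.46 to 14.6%, 0.221 to 10.2% and 2.4 to 19.3%, and lower 3 to 14.9%, 0.0828 to 9.78% and 3.58 to 20%. Signs that turned without that array, with a call, are given as the log2 difference without it and, after it, the far end of the range over the 9 left-out arrays: in WT vs syngeneic Ltbr (0.37, -0.29), Tnfrsf13c (-0.37, 0.34), Tnfrsf1a (0.52, -0.38) and Tnfrsf22 (0.32, -0.23), and in KO vs WT Tnfrsf1a (-0.47, 0.43), Tnfrsf21 (-0.31, 0.35), Tnfrsf25 (0.74, -0.51), Tnfrsf9 (0.49, -0.46) and Tnfsf13b (-0.72, 1.01). With array weights they were those of Ltbr (0.37), Tnfrsf13c (-0.35), Tnfrsf1a (0.51) and Tnfrsf22 (0.31), and of Tnfrsf1a (-0.48), Tnfrsf25 (0.82), Tnfrsf9 (0.56) and Tnfsf13b (-0.67). Array weights gave 8 members higher, 6 lower and 11 signalling genes in WT vs syngeneic, 11, 4 and 13 in KO vs WT, and 12, 5 and 15 in KO vs syngeneic, where all genes higher and lower were 21.7% and 18.5%, 13.1% and 14.2%, and 21.2% and 21%. With only the 6 arrays compared the counts were 0 signalling genes in WT vs syngeneic, 0 members higher and 0 signalling genes in KO vs WT, and 11, 5 and 9 in KO vs syngeneic, against 17.9% and 18.9% of all genes. With the replicate number as a block, which the data do not bear out as a pairing, they were 0 signalling genes, then 0 and 0, and 1 member higher and 1 lower in KO vs syngeneic. The deposited log2 values gave 0 signalling genes in WT vs syngeneic and in KO vs WT, and 0 members higher and 0 lower in KO vs syngeneic. Signalling genes numbered 1 in WT vs syngeneic without background correction and without the filter on dim probes, and 0 in KO vs WT without background correction, with an offset of 16 and when the passing probes of a gene were averaged. No background correction gave 2 members higher in KO vs WT, and the detection p filter 1 in KO vs syngeneic. The cause of these shifts was not tested. Signals near the limit, such as those of Tnfrsf26, Tnfrsf14 and Tnfsf11, limit what a fold size can say.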
